A study of Caenorhabditis elegans with 7 samples.

Results

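Histones package DNA into nucleosomes, and 14 histone genes were described here in starved first-stage (L1) larvae of the nematode Caenorhabditis elegans. They were all genes with a his or hil name and a number in the authors' deposited comparison of 13436 genes, and no difference between the groups was used to choose them. RefSeq names 80 such genes and all 80 were counted, so that 66 lay outside the comparison, which kept genes above 1 CPM (counts scaled to the library total) in 3 libraries. The 14 comprised 3 genes of the core class (H4 genes his-37 and his-60, H2B gene his-41), 4 variant genes (his-35 of H2A, his-71, his-72 and his-74 of H3) and 7 linker histone genes (his-24 and hil-1, hil-2, hil-3, hil-4, hil-5 and hil-7).

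All larvae were of the wild-type strain N2, maintained at 20 °C, with no transgene, and had met no food. Their parents had fed on HB101 bacteria in S-complete liquid for 96 hr, ad libitum (AL, amount 25) or under dietary restriction (DR, amount 3.1), both amounts in mg per mL in the deposited notes. The labels give the DR amount in ml per mL, and the notes add that the parents too had been arrested as larvae without food. Embryos freed by bleaching were held in S-basal for 24 hr, and the hatched larvae were frozen, giving 3 AL libraries (A, B and C) and 4 DR libraries (A, B, C and D), and the p-values measure only the spread between these libraries. Each library held between 16626117 and 22952310 counts in features, and a count of 0 allowed up to 0.131 to 0.180 CPM, counting error only. Muscle, gut, neuron and hypodermis markers (11 genes, none at 0) summed to between 11817 and 12250 CPM in AL and between 9076 and 11702 CPM in DR libraries. The muscle gene unc-54 alone averaged 6308 CPM in AL and 5172 CPM in DR libraries. The only hypodermis marker, dpy-7, ranged from 0.365 to 7.36 CPM, so the sum says little of that tissue. Summed embryo markers lay between 56.8 and 100.5 CPM and those of primordial germ cells between 45.5 and 58.8 CPM. Yolk protein genes, which the adult intestine expresses, summed to 75.1 to 117.9 CPM in 6 libraries and to 624.6 CPM in DR C. The part of these markers in the histone values was not tested.

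A nucleosome wraps DNA around pairs of H2A, H2B, H3 and H4, and a linker histone (H1) binds the DNA between nucleosomes. In animals the bulk of core histone is made during DNA replication from many short, intronless gene copies, whose mRNA usually ends in a stem-loop and not in a poly(A) tail. Variant histones such as H3.3 are made outside replication from polyadenylated mRNA. A starved L1 larva is arrested in development and its cells hardly divide. The labels give the RNA as poly(A) RNA, a selection that captures mRNA without a poly(A) tail poorly.

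Nearly all histone reads fell on genes with an intron. In the Ensembl 115 gene models, 16 of the 80 genes had 2 or more exons in at least 1 transcript and took 99.5% of the family's 248136 reads. The other 64 genes had a single exon and together held 1123 reads. Of the 14 genes, 13 had an intron, and his-60 was the exception. Among the single-exon genes the median was 4.5 reads over all libraries together, 21 had none in any library, and his-60 had the most, with 265. The genes with an intron that stayed low were hil-6 (45 reads), hil-8 (53 reads) and the H2A gene his-57 (0 reads).

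**Figure D1:**
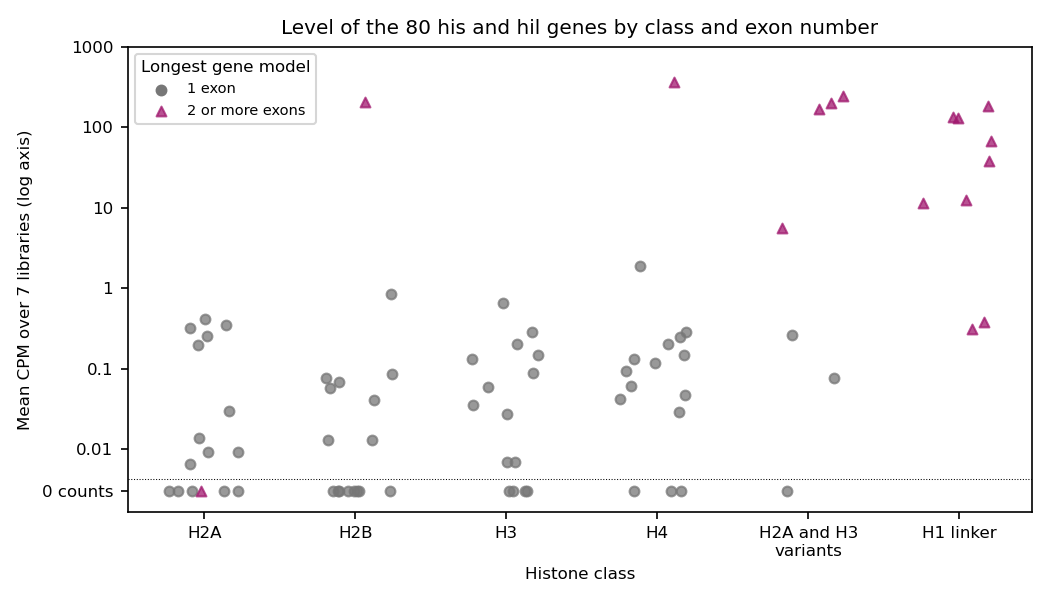
Mean CPM over the 7 libraries (vertical log axis) of the 80 his and hil genes by histone class (horizontal axis), with circles for genes of 1 exon and triangles for genes of 2 or more; genes with no read lie below the dotted line. The 61 single-exon core genes stay below 2 CPM, whereas his-37 (H4) and his-41 (H2B) stand at 371.9 and 204.4 CPM.

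Each core class was thus read almost wholly from 1 gene or from none. Of the reads in the H2B class, 99.4% fell on his-41 alone, and of those in the H4 class, 99.6% fell on his-37 and his-60. The 16 H2A genes of the core class held 218 reads and the 15 H3 genes 229 reads, over all libraries. Single-exon copies of a core histone are near-identical in sequence, and the notes do not say what Bowtie did with reads that fit several copies. HTSeq recorded 0 reads as not uniquely aligned in every library. This does not settle whether such reads were left out, placed on 1 copy or counted at several. Low capture of mRNA without a poly(A) tail, loss of shared reads and truly low mRNA in larvae whose cells hardly divide cannot be told apart in these counts. Single-copy values in this class are uncertain.

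The member with the lowest level was his-60 (F55G1.11), a single-exon H4 copy. It stood at 1.254, 1.83 and 3.70 CPM in AL A, B and C and at 2.18, 1.94, 1.15 and 1.15 CPM in DR A, B, C and D, from 18 to 77 reads. AL C was the highest and the groups overlapped. Its log2 fold change of DR over AL was −0.48 ± 0.38 (SE), interval −1.32 to 0.36 (edgeR quasi-likelihood test, adjusted p = 0.662). It was 0.08 without AL C, and 0.49 and −1.26 within the file-name prefixes described below. Just outside the comparison lay the H2B copy his-62, at 0.908, 0.768 and 1.20 CPM in AL and 0.532, 1.26, 0.835 and 0.511 CPM in DR libraries. The H3 copy with the most reads, his-32, stood at 0.303, 0.472 and 1.30 CPM in AL and 0.436, 0.903, 0.522 and 0.639 CPM in DR libraries (7 to 27 reads). It and his-62 were tested without a call, with log2 fold changes of −0.14 ± 0.51 and −0.27 ± 0.39 (SE). The next copies by level, such as his-12 (55 reads in all) and his-68 (48) of H2A, his-59 (40) of H3 and his-50 (40) of H4, were too low to test.

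Summed over the 61 single-exon core copies, the level was 5.49, 6.26 and 11.1 CPM in AL A, B and C and 6.83, 9.66, 6.94 and 7.99 CPM in DR A, B, C and D. AL C and DR B were highest in this sum, 1 library of each group.

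The H4 gene his-37 (C50F4.7) had the highest level of the 14 genes. It stood at 346.9, 360.4 and 396.1 CPM in AL A, B and C and at 337.8, 362.1, 424.5 and 375.5 CPM in DR A, B, C and D. The groups overlapped, with DR A below and DR C above every AL library, and 97.8% of tested genes had a mean at or below that of his-37. Its log2 fold change of DR over AL was 0.03 ± 0.11 (SE), with a 95% interval from −0.20 to 0.26 (edgeR quasi-likelihood test, adjusted p = 0.945).

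The H2B gene his-41 (C50F4.5) had 183.0, 176.0 and 216.0 CPM in AL A, B and C and 181.2, 227.2, 225.6 and 221.8 CPM in DR A, B, C and D. DR B, C and D lay above every AL library and DR A lay below AL A and AL C. Its log2 fold change was 0.16 ± 0.11 (SE), interval −0.09 to 0.41 (edgeR, adjusted p = 0.630), and within the file-name prefixes described below it was 0.21 and 0.19.

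The H2A variant gene his-35 (C50F4.13) lies next to his-41 in the RefSeq order of genes, and only C50F4.6 separates his-41 from his-37. It had 159.1, 148.1 and 172.7 CPM in AL A, B and C and 164.4, 170.1, 187.3 and 173.9 CPM in DR A, B, C and D. AL C lay within the DR range, the other AL libraries below it. The log2 fold change was 0.12 ± 0.09 (SE), interval −0.08 to 0.33 (edgeR, adjusted p = 0.656), and 0.13 and 0.12 within the prefixes. The models of his-37 and his-41 overlap nstp-10 on the opposite strand and C50F4.6 on the same strand. HTSeq left between 808410 and 1026551 ambiguous reads per library out of the counts. Reads from these overlaps may be among them, so the levels of his-37 and his-41 may be understated.

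The replacement histone H3.3, which enters chromatin outside replication, was read mostly from his-71 and his-72. The gene his-72 (Y49E10.6) had 233.4, 258.2 and 273.8 CPM in AL A, B and C and 245.2, 249.3, 253.4 and 229.4 CPM in DR A, B, C and D. Its sister his-71 (F45E1.6) had 205.3, 188.0 and 210.0 CPM in AL and 185.1, 189.2, 229.3 and 181.9 CPM in DR libraries in the same order. Both genes overlapped between the groups, and the spread of his-72 was the narrowest of the 14, with a within-group SD of 0.09 on the log2 scale against a median of 0.20 over all tested genes. Their log2 fold changes were −0.06 ± 0.09 and −0.03 ± 0.11 (SE), with intervals from −0.27 to 0.14 and from −0.26 to 0.20 (edgeR, adjusted p = 0.835 and 0.928).

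The H3 variant gene his-74 (W05B10.1) stood much lower, at 5.58, 5.90 and 7.25 CPM in AL A, B and C and 5.57, 5.33, 5.48 and 4.54 CPM in DR A, B, C and D. It was the only one of the 14 whose groups did not overlap, DR below AL, which held for 5.88% of all tested genes. DR A and AL A were nearly equal. No histone gene had every DR library above every AL library, against 5.97% of all tested genes. Its log2 fold change was −0.25 ± 0.16 (SE), interval −0.60 to 0.09 (edgeR, adjusted p = 0.575), and −0.03 and −0.53 within the prefixes.

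**Figure D2:**
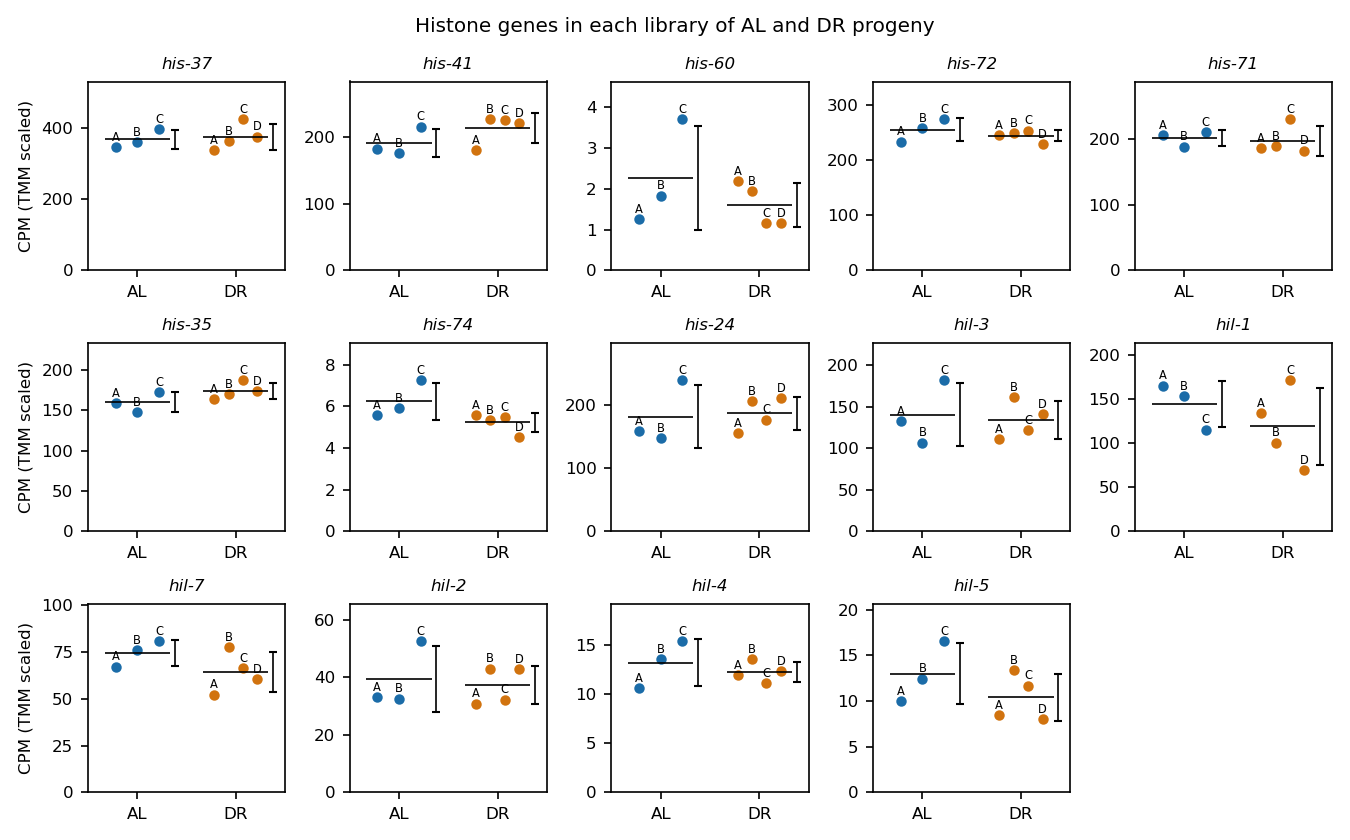
CPM scaled by TMM factors (vertical axes from 0) of the 14 histone genes in each AL (blue) and DR (orange) library, lettered by replicate; lines are group means and bars their SD. The groups overlap for every gene but his-74, and AL C is the highest library for 9 of the 14 genes.

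Linker histone genes had a wider spread within groups than the variant and most core genes. Their median within-group SD was 0.31 on the log2 scale, against 0.11 for the variant genes, 0.16 for the core genes (0.60 for his-60) and 0.20 for all tested genes. The most abundant was his-24 (M163.3), the H1.1 gene, whose product acts in germline chromatin silencing. It had 158.4, 147.9 and 239.4 CPM in AL A, B and C and 155.4, 207.0, 177.2 and 210.6 CPM in DR A, B, C and D. AL C was the highest of all libraries and AL B the lowest, so that the AL group spanned the DR group (log2 fold change 0.04 ± 0.17, SE, adjusted p = 0.948, edgeR). Its model overlaps the non-coding RNAs M163.16 and M163.19 on the opposite strand, and reads there may likewise have been left out as ambiguous.

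The linker gene hil-3 (F22F1.1) had 132.5, 106.8 and 181.7 CPM in AL A, B and C and 111.3, 161.9, 121.8 and 141.1 CPM in DR A, B, C and D. The gene hil-2 (Y73B6BL.9) had 32.99, 32.6 and 52.5 CPM in AL and 30.8, 42.9, 32.2 and 42.8 CPM in DR libraries. In both, AL C and DR B were the 2 highest libraries and the groups overlapped. Log2 fold changes were −0.07 ± 0.19 for hil-3 and −0.08 ± 0.20 for hil-2 (SE; edgeR, adjusted p = 0.919 and 0.903), and without AL C they turned to 0.16 and 0.18.

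The gene hil-1 (C30G7.1) encodes a linker histone-like protein described on cytoplasmic filaments and went the other way across libraries. It had 165.2, 153.0 and 115.4 CPM in AL A, B and C and 134.0, 100.7, 171.2 and 69.8 CPM in DR A, B, C and D. The 3 lowest libraries were DR D, DR B and AL C, and the highest was 2.45 times the lowest. Its log2 fold change was −0.28 ± 0.30 (SE), interval −1.002 to 0.44 (edgeR, adjusted p = 0.766). Without DR D it was −0.10. Within prefix 2, which has no DR library but DR D, it was −0.94. Within prefix 1, which has no AL library but AL A, it was −0.29.

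The genes hil-4 (C18G1.5), hil-5 (B0414.3) and hil-7 (C01B10.5) completed the linker genes. For hil-7 the values were 67.2, 75.9 and 80.8 CPM in AL A, B and C and 52.3, 77.7, 66.5 and 60.6 CPM in DR A, B, C and D. For hil-5 they were 9.99, 12.5 and 16.6 CPM in AL and 8.47, 13.4, 11.7 and 8.05 CPM in DR libraries. AL C and DR B were again the 2 highest in both genes. For hil-4 they were 10.6, 13.6 and 15.4 CPM in AL and 12.0, 13.5, 11.1 and 12.3 CPM in DR libraries, with AL C highest. Log2 fold changes were −0.21 ± 0.13 for hil-7, −0.32 ± 0.22 for hil-5 and −0.11 ± 0.14 for hil-4 (SE; edgeR, adjusted p = 0.559, 0.617 and 0.806). Without AL C that of hil-5 was −0.10 and that of hil-4 was 0.02, and hil-7 ranged from −0.32 without DR B to −0.13 without DR A. Within prefix 1 and prefix 2 hil-5 stood at 0.16 and −0.85.

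The share of hil-1 in linker RNA stood at a pair of levels that did not follow the groups. Per kilobase of exon, hil-1 made up 26.3%, 25.6%, 24.6% and 26.7% of linker RNA in AL A, AL B, DR A and DR C. In AL C, DR B and DR D its share was 15.04%, 14.9% and 11.7%. No library lay between 15.04% and 24.6%, and both levels held AL and DR libraries and both file-name prefixes. The ratio of hil-1 to his-24 per kilobase was 1.06, 1.05 and 0.489 in AL A, B and C and 0.874, 0.493, 0.980 and 0.336 in DR A, B, C and D. The ratio of hil-3 to his-24 moved far less, between 0.718 and 0.897.

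**Figure D3:**
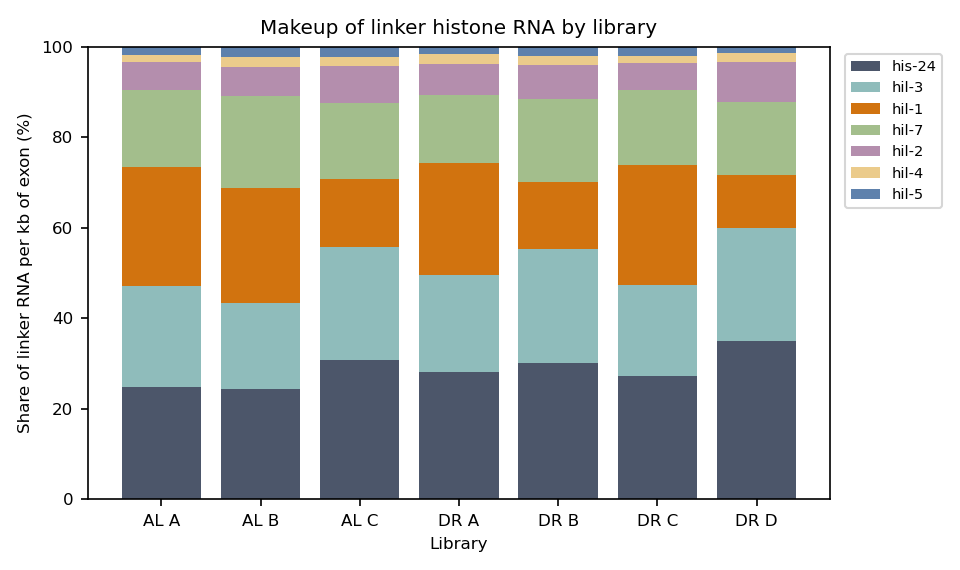
Share of linker histone RNA per kilobase of exon (vertical axis, %) taken by each of the 7 linker genes in each library (horizontal axis), stacked from his-24 at the bottom. The hil-1 segment takes 11.7% to 15.04% in AL C, DR B and DR D and 24.6% to 26.7% in the other 4 libraries.

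Compared per kilobase of exon, the order of levels was led by his-37, at 867 ± 69.8 CPM per kilobase (SD, n = 7 libraries). Then came his-41 (397 ± 44.9) and his-72 (390 ± 23.6), which did not differ beyond their spread. The pair of his-35 (337 ± 24.9) and his-71 (336 ± 29.2) followed and likewise did not differ beyond their spread. Among linker genes his-24 (201 ± 37.3), hil-3 (159 ± 31.7), hil-1 (143 ± 40.6) and hil-7 (120 ± 17.7) overlapped their neighbours across libraries, with hil-2 at 50.4 ± 10.8. Compared within each library, however, hil-3 always lay below his-24, at a ratio between 0.718 and 0.897. At the bottom were hil-5 (13.3 ± 3.45), hil-4 (13.2 ± 1.71), his-74 (9.76 ± 1.41) and his-60 (6.04 ± 2.88), all in CPM per kilobase. H2A, H2B, H3 and H4 were thus each read mostly from genes with an intron. For H3 these were mostly his-71 and his-72, which summed to 726 ± 43.98 CPM per kilobase (SD, n = 7). The ratio of his-71 to his-72 per kilobase stayed between 0.786 and 0.977. Exon lengths came from Ensembl 115, which may differ from the annotation counted.

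**Figure D4:**
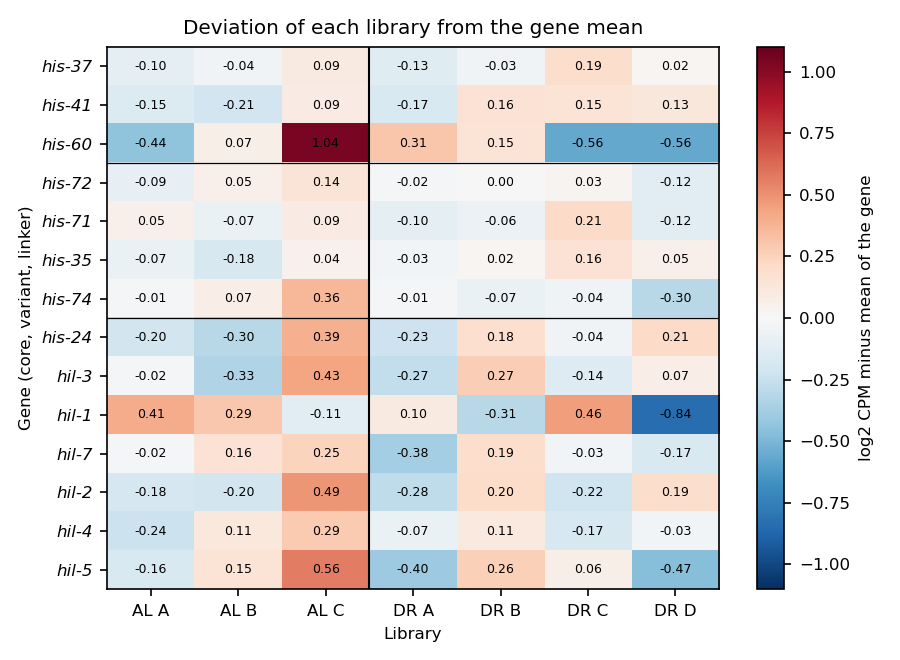
Log2 CPM (prior count of 2) of each histone gene (rows, by core, variant and linker) in each library (columns) minus the gene's mean over the 7 libraries, with red above and blue below the mean. AL C is above the mean in every gene except hil-1, and DR D is lowest in hil-1.

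AL C was among the 2 highest libraries for 11 of the 14 genes and the lowest for none. DR C was the highest library for 4 genes, his-37, his-35, his-71 and hil-1, and it is also the library with high yolk protein RNA. DR D was the lowest library for 5 of the 14 genes. How often each library was highest or lowest among all tested genes was not counted, so this order may not be particular to histone genes. Summed over the 14 genes, the level was 1712, 1681 and 1981 CPM in AL A, B and C and 1626, 1822, 1918 and 1733 CPM in DR A, B, C and D. The group means were 1791 ± 165 CPM (SD, n = 3) and 1775 ± 125 CPM (SD, n = 4). In whole larvae, fewer cells of a type and less RNA per cell cannot be told apart.

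Setting DR beside AL progeny addresses whether histone RNA in starved offspring varies with parental diet. None of the 14 genes passed the edgeR quasi-likelihood test at an adjusted p of 0.05, where 2 of 14867 tested genes passed (0.0135%), and 0 of the 14 had an unadjusted p under 0.05, against 10.7% of all tested genes. No histone gene was called by limma-voom or the edgeR exact test, nor by DESeq2 among the 13 genes to which it gave an adjusted p (none for his-60). The lowest unadjusted p was 0.118, for hil-7. Of the 14 genes 10 had a log2 fold change below 0 (48.4% of all tested genes), and their median was −0.08 against 0.01 over all tested genes. Without AL C 6 of the 14 lay below 0 and the median was 0.05. Within prefix 1, whose only AL library is AL A, these were 5 genes and 0.11, and within prefix 2 they were 10 genes and −0.16. The median was −0.15 without AL A, −0.14 without AL B, −0.03 without DR A and −0.16 without DR B. It was −0.07 without DR C and −0.09 without DR D, so among the libraries left out only AL C turned its sign. In the authors' deposited table an adjusted p under 0.05 was given for 38 of 13436 genes, and the histone genes ranged from 0.685 to 0.983.

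**Figure D5:**
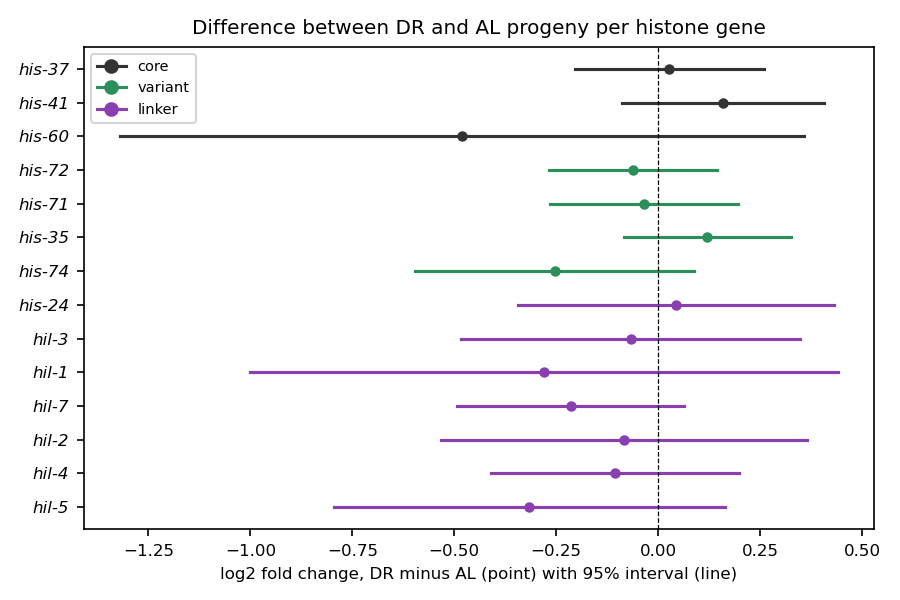
Log2 fold change of DR over AL (horizontal axis, points) with its 95% interval (lines) from the edgeR quasi-likelihood fit for the 14 histone genes (vertical axis), coloured by core, variant and linker. Every interval spans 0, the widest being those of his-60 and hil-1.

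By class, the median log2 fold change was 0.03 over the 3 core genes, −0.05 over the 4 variant genes and −0.11 over the 7 linker genes. The core median was the value of his-37, and of the core genes only his-60 has a single exon. The linker median became 0.02 without AL C. The names of the deposited count files carry 2 prefixes, prefix 1 for AL A and 3 DR libraries (A, B and C), and prefix 2 for AL B, AL C and DR D. Within prefix 1 and prefix 2 the linker median was 0.10 and −0.23, the variant median 0.03 and −0.17 and the core median 0.21 and −0.004. Each prefix holds a single library of 1 group. The intervals bound what these libraries allow, since for his-35, his-37, his-71 and his-72 they exclude a log2 change beyond 0.33 in either direction, whereas for hil-1 and his-60 a change of 1.0 lower in DR progeny lies within them.

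Sums over copies do not depend on which copy a read was assigned to, provided each read was counted once. With counts summed in this way, the log2 fold changes were 0.16 ± 0.11 for H2B and 0.03 ± 0.11 for H4 (SE), set by his-41 and his-37. Over single-exon copies alone they were 0.57 ± 0.35 for H2A, −0.26 ± 0.29 for H2B, 0.11 ± 0.38 for H3 and −0.12 ± 0.31 for H4 (SE). Over the tested single genes the medians were instead −0.06 for H2B (his-41 and his-62) and −0.23 for H4 (his-37 and his-60). The single-exon sums rest on 15 to 111 reads per library and class.

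Genes that work with histones showed no call. All 3 variants named otherwise were tested, and the H2A.Z gene htz-1 averaged 104.6 ± 5.30 CPM among AL (SD, n = 3) and 102.9 ± 4.46 CPM among DR libraries (SD, n = 4). The centromeric H3 genes hcp-3 and cpar-1 averaged 8.08 and 1.28 CPM among AL and 8.41 and 1.29 CPM among DR libraries. Of the 12 chaperone and deposition genes, 8 were higher and 4 lower in DR progeny and 0 passed, with a median log2 fold change of 0.12. The CAF-1 subunit gene chaf-2 had the smallest p of these, with 11.7 ± 1.77 CPM among AL and 15.3 ± 2.33 CPM among DR libraries (adjusted p = 0.406, edgeR). The gene lin-53, encoding a histone-binding WD-repeat protein, stood at 42.7 ± 0.978 and 48.98 ± 2.92 CPM in AL and DR libraries (adjusted p = 0.440, edgeR). The groups did not overlap, DR above AL, for 2 of the 12 genes (lin-53 and xnp-1), against 5.97% of all tested genes.

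Among the 24 S phase genes, which mark DNA replication, 18 were higher and 6 lower in DR progeny and 0 passed (median 0.10). The groups did not overlap for 3 of the 24 with DR above AL (orc-1, tyms-1 and cdc-6), against 5.97% of all tested genes, and for 1 with DR below AL, against 5.88%. The origin recognition gene orc-1 stood at 7.86 ± 1.39 and 10.2 ± 1.17 CPM and the replication clamp gene pcn-1 at 29.3 ± 5.78 and 34.5 ± 1.60 CPM in AL and DR progeny (edgeR, adjusted p = 0.424 and 0.500). In the list for histone mRNA, 5 of 6 genes were matched by name and tested, with 2 higher, 3 lower and 0 passed (median −0.10). The gene for the stem-loop binding protein, cdl-1, stood at 28.2 ± 2.55 and 29.8 ± 1.90 CPM, and the Argonaute gene csr-1, linked to histone mRNA maturation in this worm, at 25.9 ± 4.94 and 23.3 ± 2.88 CPM. Of the 13 embryo markers 5 were higher and 8 lower (median −0.22), and of the 9 germ line markers 3 were higher and 6 lower (median −0.05), with 0 past the test in either list. DR lay below AL without overlap for 1 of the 9 germ line markers (deps-1), against 5.88% of all tested genes. No other marker of these 2 lists had groups apart in either direction. Of the 11 larval tissue markers 4 were higher and 7 lower (median −0.12), with 0 past the test. The groups did not overlap for 3 of the 11 with DR below AL (unc-64, ifb-2 and unc-54), against 5.88% of all tested genes. For DR above AL the number was 0, against 5.97%. All 3 yolk protein genes were higher (median 1.15, set by DR C), again with 0 past the test. The part of these differences in the histone values was not tested.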

How the data were processed

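Poly(A) RNA of starved L1 larvae was sequenced on 7 libraries from a kit that does not keep the strand. The submitters' processing notes name Bowtie 1.1.2 and HTSeq, with build and annotation not given in the sources used. The deposited files hold raw counts per feature; 22.2% to 24.0% of reads fell in HTSeq's summary lines and were left out. The authors' workbook gives CPM per library, log2 fold changes and p-values from an edgeR exact test, per the deposited notes; the authors' CPM were used only through the sheet's gene list.

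Features were named from RefSeq (43592 of 44968 features), the authors' sheet and Ensembl 115. The test was edgeR 4.0.16's under R 4.3.3 (TMM, filterByExpr, robust quasi-likelihood F-test, two-sided, Benjamini-Hochberg over 14867 genes, threshold 0.05) and checked on simulated data. There it called 34.4% of genes changed 1.5-fold, 65.2% of those changed 2-fold and 91.6% of those changed 4-fold, so smaller changes were often missed. Of unchanged genes it called 0.0914%. CPM printed here are TMM scaled. Classes follow gene names and were not checked against proteins. All 14 genes were tested and are named with every library; of single-exon core copies those with the most reads are named, and of related lists those with the smallest p. Members and lists were chosen with earlier results of these data known. Alternatives used DESeq2 1.42.0 and limma 3.58.1, other normalisations and filters, replicate letters as a block, file-name prefixes, and each library left out.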

Additional observations from a re-analysis of the deposited data

Results flagged for a closer look

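In the 4 DR libraries, DR A stood apart from the others for his-41, at 181.2 CPM, below 221.8 to 227.2 CPM. DR C stood apart for his-71, at 229.3 CPM, above 181.9 to 189.2 CPM. These were 2 of 24 sets of 4 values examined, and chance alone gives about 1 in 20.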

How the results depend on the processing

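No histone gene passed under any alternative outside the fits within a prefix (DESeq2 gave his-60 no adjusted p). Each of those fits leaves 1 library in a group, so for histone genes only effect sizes are given from them. The counts over all genes called within a prefix, given below, rest on that 1 library and show no reliable number of changed genes. Within prefix 2 hil-1 had a log2 fold change of −0.94. That prefix has no DR library but DR D, assumed to vary like the AL libraries. Over all genes 2 were called, against 1 with library size only, 77 with no filter on low counts, 41 by DESeq2, 24 by the edgeR exact test, 0 by limma-voom, 0 within prefix 1, 616 within prefix 2 and 0 to 2 with 1 library left out. With the replicate block 4 genes were called and no histone gene. Same-letter libraries did not deviate together in every pair (r of 0.198 for A, 0.268 for B and −0.102 for C), so the letters were not taken as pairs.

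The medians that moved beyond the spread between libraries were the core median, to 0.208 within prefix 1 and the variant median, to −0.165 within prefix 2. Signs turned, always without a call, for hil-2 (0.0556 with the prefix as covariate, 0.0991 and 0.0129 within the prefixes), hil-4 (0.20), hil-5 (0.16), his-60 (0.49) and his-72 (0.10) within prefix 1 (−0.23, −0.85, −1.26 and −0.21 within prefix 2), his-37 within prefix 2 (−0.00354), and his-24 (−0.00105) and his-37 (−0.0177) with library size only. With 1 library left out, log2 fold changes ranged from −0.20 to 0.18 for hil-2, −0.23 to 0.16 for hil-3, −0.242 to 0.0194 for hil-4, −0.0843 to 0.291 for his-24, −0.0349 to 0.084 for his-37, −0.779 to 0.0762 for his-60 and −0.12 to 3.5e-05 for his-71. The other genes kept their sign, from −0.51 to −0.10 for hil-1, −0.48 to −0.10 for hil-5, −0.32 to −0.13 for hil-7, 0.07 to 0.18 for his-35, 0.10 to 0.25 for his-41, −0.12 to −0.01 for his-72 and −0.33 to −0.13 for his-74. The cause was not tested. Single-exon copies had at most 77 reads per library, which limits the precision of their values. Summing only single-exon copies was chosen after seeing the data.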
